A study of Rattus norvegicus with 16 samples.

Results

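Libraries of poly(A) RNA from tissue labelled as central amygdala were compared between male rats (Rattus norvegicus) exposed around birth to fentanyl and male rats exposed around birth to saline. They were chosen by their labels alone: the 6 fentanyl males carry library numbers 1 to 6, the 6 saline males carry library numbers 1, 2 and 9 to 12, and together they are 12 of the 16 libraries of the series. The other 4 libraries come from 2 fentanyl and 2 saline females, which were left out of the fit and used only as a comparison. Every animal, saline animals included, was an offspring that went through sessions the labels abbreviate as IVSA, and brains were collected from the adults 1 day after the final session. The labels give no strain, dose, age or litter and do not say whether animals were littermates, so p-values here measure the spread between these animals and make no allowance for shared litters.

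Fentanyl is a synthetic opioid that activates the mu opioid receptor, an inhibitory G protein-coupled receptor. The central amygdala is the output nucleus of the amygdala and consists mostly of GABAergic neurons, many of which make opioid peptides such as enkephalin and dynorphin. Motile cilia are the beating hair-like organelles that ependymal cells carry on the walls of the brain ventricles, and a pair of the genes that passed here, Spag6l and Efcab1, encode parts of them.

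Total counts ran from 12879701 in fentanyl male replicate 5 to 22426428 in saline male replicate 3, and after a filter on low counts 16542 of 33294 genes were tested. Genes used as markers of the labelled tissue had counts in all 12 libraries, at unlike levels. Gad1, a GABA-synthesising enzyme, lay between 448 and 711 CPM (read counts relative to TMM-scaled library size) and Sst between 48.6 and 207 CPM. Prkcd, which marks lateral central amygdala neurons, lay between 12.4 and 33.4 CPM. Crh, the gene of corticotropin-releasing hormone, was lower, at 0.522 to 17.3 CPM (median 3.59). Drd1 and Drd2, dopamine receptor genes abundant in the neighbouring striatum, reached 93.1 to 339 and 53.9 to 256 CPM. Slc17a7, the vesicular glutamate transporter of cortical and basolateral amygdala neurons, was at 68.4 CPM in saline male replicate 3 and at most 2.11 CPM in the other 11 libraries. The Y-linked Eif2s3y lay between 50.7 and 59.5 CPM in the 12 libraries and between 0 and 0.126 CPM in the females. Ttr, which defines choroid plexus epithelium, did not exceed 0.168 CPM. Some libraries stood apart in composition, namely fentanyl male replicate 2 and saline males with library numbers 1 and 2. The counts of calls are also given without them, as are the medians of several lists and the values of some genes, but not of all.

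The comparison of 6 with 6 asks which transcripts still differed in adult male offspring by exposure around birth. Perinatal fentanyl was associated with a small set of genes: 6 were higher and 1 was lower at an adjusted p under 0.05 (edgeR quasi-likelihood test, Benjamini-Hochberg adjustment). That is 0.0423% of the genes tested, 0.0363% higher and 0.00605% lower. The higher genes were Spag6l, LOC100912028, Efcab1, Calr3, Magix and LOC120095234, and the lower one was Lonrf3. For each of the 7, all 6 fentanyl males lay on the same side of all 6 saline males.

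Spag6l encodes a protein of the central apparatus of motile cilia. Its level was 13.9 to 32.4 CPM in fentanyl males, with a median of 22.2 CPM, and 0.812 to 3.92 CPM in saline males, with a median of 1.69 CPM. The lowest fentanyl library, replicate 5, was still well above the highest saline library, replicate 3. The means were 22.7 ± 7.97 and 1.93 ± 1.11 CPM (SD, n = 6 each), an 11.5-fold difference and or 3.52 ± 0.35 as a log2 fold change with its SE (edgeR adjusted p = 0.00140).

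LOC100912028 is a provisional protein-coding symbol that lies on chromosome 11 in the RefSeq table, with 2 genes between it and Spag6l. Fentanyl males had 3.03 to 13.5 CPM (median 6.99) and saline males 0.290 to 1.60 CPM (median 0.542), with saline male replicate 3 the highest of its group. The log2 fold change was 3.40 ± 0.46 (adjusted p = 0.0203). Fentanyl male replicate 3 had the highest level and saline male replicate 2 the lowest for both LOC100912028 and Spag6l. Spag6l has a close relative, Spag6, and sharing or loss of reads between such copies was not tested, so both levels are uncertain.

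Efcab1, listed in RefSeq under its newer symbol Clxn, encodes an EF-hand protein of the dynein arms that power ciliary beating. It also lies on chromosome 11, with 24 genes between it and Spag6l. Its level was 2.91 to 6.86 CPM in fentanyl males (median 5.63) and 0.885 to 2.20 CPM in saline males (median 1.28). Replicate 5 was the lowest fentanyl library and replicate 6 the highest saline library, and they did not meet. The log2 fold change was 1.93 ± 0.25 (adjusted p = 0.0129), a 3.82-fold difference.

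Calr3, on chromosome 16, is a calreticulin family chaperone of the endoplasmic reticulum best known from testis. Its level was 5.57 to 9.04 CPM in fentanyl males (median 7.13) and 3.65 to 4.31 CPM in saline males (median 3.97). The saline libraries were tightly grouped, with a SD of 0.256 CPM around a mean of 3.97 CPM, and the gap to the lowest fentanyl library, replicate 1, was wider than the saline range. The difference was 1.85-fold, a log2 fold change of 0.89 ± 0.13 (adjusted p = 0.0311).

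Magix encodes a PDZ-domain protein and lies on the X chromosome. Its counts were low, 6 to 42 reads per library. Fentanyl males had 1.79 to 3.30 CPM (median 2.15) and saline males 0.376 to 1.17 CPM (median 0.605), with saline male replicate 1 the highest of its group. The log2 fold change was 1.82 ± 0.27 (adjusted p = 0.0311).

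LOC120095234, a provisional protein-coding symbol on chromosome 10, had the smallest p of all genes tested. Its level was 3.47 to 8.73 CPM in fentanyl males (median 5.16) and 0.295 to 0.564 CPM in saline males (median 0.377). No saline library came near the fentanyl range, and fentanyl male replicate 2 was the highest. The means, 5.50 ± 1.79 and 0.408 ± 0.102 CPM (SD, n = 6 each), gave a log2 fold change of 3.74 ± 0.26 (adjusted p = 2.799e-05) and a 13.3-fold difference, from 5 to 121 reads per library.

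Lonrf3, also on the X chromosome, encodes a protein with a LON domain and RING fingers and was the lower gene. Its level was 24.1 to 30.3 CPM in fentanyl males (median 28.2) and 36.6 to 40.2 CPM in saline males (median 37.7). The highest fentanyl library, replicate 3, lay below the lowest saline library, replicate 2, with a clear gap between them. The change was small: fentanyl males stood at 0.735 times the saline level, a log2 fold change of -0.45 ± 0.07 (adjusted p = 0.0365).

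LOC120095234 and Spag6l passed the threshold under each of the 23 other settings tried. All 7 genes had the same direction in each, which their lack of overlap fixes for settings that only leave out libraries. The other 5 fell short when certain single libraries were left out: Efcab1 without saline male replicate 4, LOC100912028 when any of 6 libraries was left out, Calr3 for any of 9, and Magix and Lonrf3 for any of 11 of the 12. Over all genes, the counts were 5 higher and 2 lower without fentanyl male replicate 2, 12 and 3 without saline library numbers 1 and 2, and 775 and 444 without saline library numbers 9 to 12. Without fentanyl male replicate 2 and saline numbers 1 and 2 together, a setting chosen after seeing the data, 31 were higher and 21 lower, with all 7 among them. Without saline numbers 1 and 2 alone, Calr3, LOC100912028 and Lonrf3 fell short, and without saline numbers 9 to 12 Magix did. In a fit that added the myelin and striatal list means as terms, likewise a later choice, Calr3, Efcab1, Lonrf3 and Magix fell short.

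**Figure D1:**
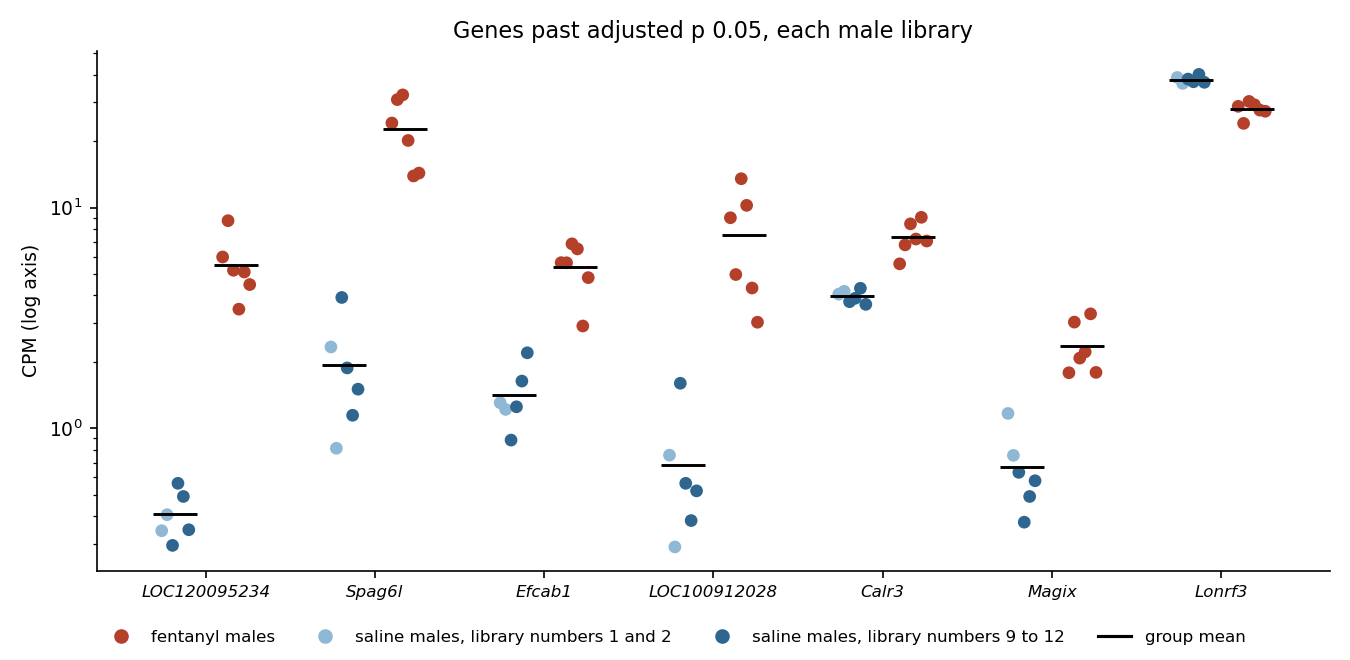
Level of each of the 7 genes past the threshold in every male library, in CPM on a log axis. Points are libraries, with saline library numbers 1 and 2 in a lighter blue than numbers 9 to 12, and black bars are group means. No fentanyl library overlaps the saline range for any of the 7, and the gap is widest for LOC120095234.

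Promoters from RefSeq (build GRCr8, 250 bases before to 50 bases after the start of each gene) are shown for the 4 genes below because they are the called genes with an approved symbol and an entry in the table. Of the 7 called genes 6 matched, and the GRCr8 coordinates are of a build newer than that of the counts. All 4 lie on the plus strand: Spag6l at chr11:97677590-97677889, Calr3 at chr16:17429855-17430154, Magix at chrX:17495842-17496141 and Lonrf3 at chrX:120430781-120431080. Capitals mark matches, on either strand, to GTTGCC (part of the X-box bound by RFX factors, which regulate ciliary genes), to the cyclic AMP response element TGACGTCA, to the GC box GGGCGG, to the TATA box TATAAA and to CCAAT.
Spag6l: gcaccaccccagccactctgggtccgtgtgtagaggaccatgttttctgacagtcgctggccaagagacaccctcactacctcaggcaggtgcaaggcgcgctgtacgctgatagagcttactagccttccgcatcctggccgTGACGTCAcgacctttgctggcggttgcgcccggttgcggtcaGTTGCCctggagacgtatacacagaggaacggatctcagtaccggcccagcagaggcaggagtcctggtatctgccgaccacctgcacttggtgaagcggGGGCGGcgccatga
Calr3: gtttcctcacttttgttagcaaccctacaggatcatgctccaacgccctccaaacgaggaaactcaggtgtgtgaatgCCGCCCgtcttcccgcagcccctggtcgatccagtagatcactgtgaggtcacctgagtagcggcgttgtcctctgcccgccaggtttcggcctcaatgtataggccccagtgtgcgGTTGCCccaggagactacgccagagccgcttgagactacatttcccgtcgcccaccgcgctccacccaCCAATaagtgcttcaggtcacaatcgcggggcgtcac
Magix: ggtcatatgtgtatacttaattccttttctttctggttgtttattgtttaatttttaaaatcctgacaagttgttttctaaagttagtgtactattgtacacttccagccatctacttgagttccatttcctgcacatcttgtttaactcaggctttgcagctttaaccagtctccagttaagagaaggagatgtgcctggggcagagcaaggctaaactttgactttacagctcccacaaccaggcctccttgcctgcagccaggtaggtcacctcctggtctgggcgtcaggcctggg
Lonrf3: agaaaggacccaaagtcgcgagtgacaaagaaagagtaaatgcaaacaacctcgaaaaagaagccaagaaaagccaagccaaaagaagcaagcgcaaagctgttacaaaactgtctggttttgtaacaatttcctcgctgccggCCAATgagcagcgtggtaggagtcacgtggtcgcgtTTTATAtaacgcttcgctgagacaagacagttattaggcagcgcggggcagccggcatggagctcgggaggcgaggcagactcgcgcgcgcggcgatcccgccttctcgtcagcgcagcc
Spag6l and Calr3 each have a single GTTGCC, a motif that 12.21% of 33465 rat promoters of this length hold, and Spag6l also has a single TGACGTCA, held by 1.829%. Each also has a GC box (33.06% of promoters), Calr3 and Lonrf3 have a CCAAT (37.49%), and Lonrf3 has a TATA box (14.22%). The Magix window has none of these motifs. The shorter TGACG, which lies within TGACGTCA and is not capitalised, was found in all 4 and in 21.2% of promoters. These matches describe the letters of the windows and no binding was measured.

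Over all genes, the 12 libraries differed little by exposure in the reported fit. The median log2 fold change was -0.01, and 48.1% of genes were above 0. An unadjusted p under 0.05 was found for 631 genes, of which 312 (1.89%) were higher and 319 (1.93%) lower. That is 3.81% of those tested, beside 5% expected without any difference. The count depended on the setting. It was 467 of 16609 genes without saline male replicate 3, 2341 of 16814 without saline numbers 1 and 2 and 3812 of 17062 without numbers 9 to 12. By limma voom with sample quality weights it was 2761 of 16542. The fentanyl and saline ranges did not overlap for 62 genes (0.375%), 35 higher (0.212%) and 27 lower (0.163%). For a single gene without any difference, lack of overlap has a probability of 0.002165 over the 924 splits of 12 libraries. Some of the 62 would therefore arise without any difference by exposure. The 7 called genes are among these 62. DESeq2 called 36 genes (0.218%), 24 higher and 12 lower, and these included all 7.

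The precision of the comparison depended on the level of a gene. For 10913 genes, 66.0% of those tested, the 95% interval of the fold change lay within 1.5-fold in either direction, so a larger difference is outside their intervals. This held for 85.03% of genes between 10 and 100 CPM and for 85.1% of those at 100 CPM or more, but for 1936 of 4986 genes between 1 and 10 CPM and 31 of 1036 genes under 1 CPM. An interval wholly beyond 1.5-fold was found for 14 higher and 11 lower genes. For most genes under 10 CPM, a difference of that size was not resolved at this depth and spread.

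**Figure D2:**
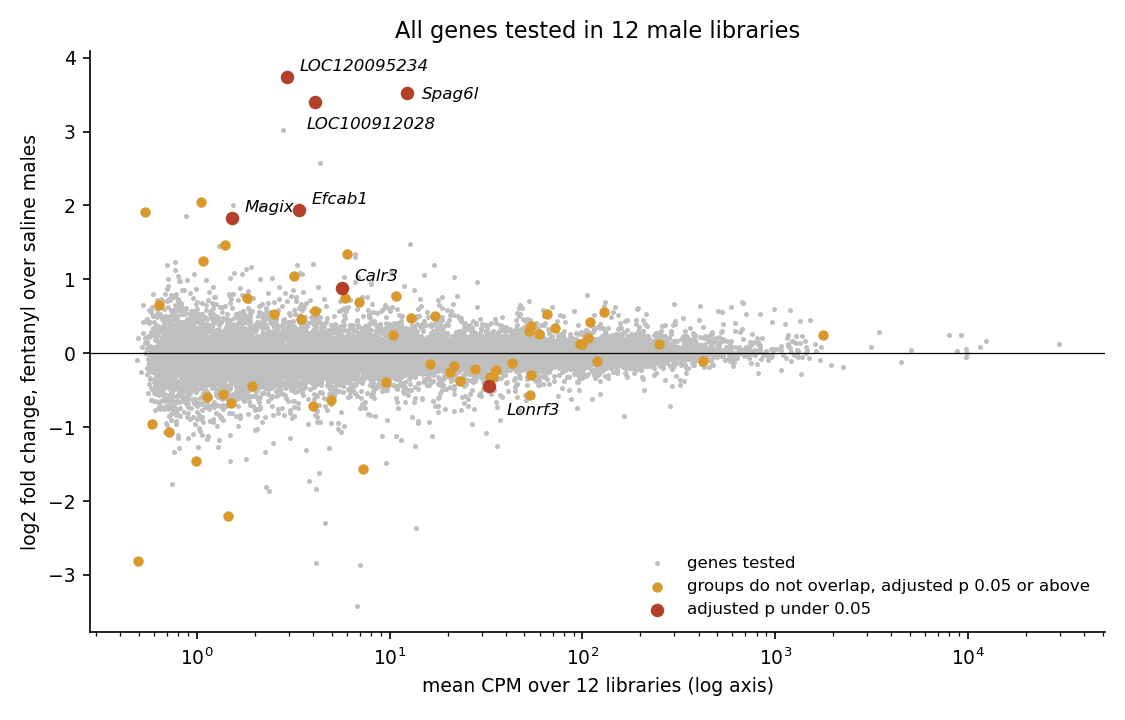
Log2 fold change of fentanyl over saline males against mean level over the 12 libraries (CPM, log axis), 1 point per gene tested. Grey points are genes tested, orange points are genes whose groups do not overlap without passing the threshold, and red points are the 7 genes that passed, of which 5 lie between 1 and 10 CPM and 2 between 10 and 100 CPM.

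Below the threshold, the higher genes with the smallest p also included a ciliary gene and genes of the extracellular matrix. Ift140, a subunit of the retrograde train of intraflagellar transport, which returns cargo from ciliary tips, had 65.2 to 89.6 CPM in fentanyl males (median 74.8) and 50.6 to 55.7 CPM in saline males (median 53.3). Its groups did not overlap, and the saline libraries were much closer together than the fentanyl libraries. The log2 fold change was 0.52 ± 0.09 (adjusted p = 0.0645).

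Ltbp2, a matrix protein of the family that binds latent TGF-beta, had 6.28 to 10.3 CPM in fentanyl males (median 9.38) and 1.52 to 4.81 CPM in saline males (median 3.52). Its groups did not overlap, and its log2 fold change was 1.35 ± 0.25 (adjusted p = 0.152). Dcn, the matrix proteoglycan decorin, had 5.72 to 8.33 against 3.57 to 5.09 CPM, again without overlap (0.75 ± 0.14 on the log2 scale, adjusted p = 0.182). Both are also made by meningeal fibroblasts, whose list is described below.

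The remaining higher genes of this kind were enzymes, a transporter and signalling genes. Slc12a8, a solute carrier, had a log2 fold change of 1.24 ± 0.21 at 1.10 to 1.80 against 0.382 to 0.843 CPM (adjusted p = 0.104). Galnt14, which starts mucin-type O-glycosylation, had 18.9 to 21.5 against 12.1 to 16.7 CPM, a log2 fold change of 0.50 ± 0.09 (adjusted p = 0.114). Neither gene overlapped between the groups. Plekha2, which binds phosphoinositides, did not overlap either (log2 fold change 0.77 ± 0.16, adjusted p = 0.242). Adcy10, the soluble adenylyl cyclase, had 7.79 to 18.9 against 3.94 to 8.58 CPM, and Htr4, a serotonin receptor gene, had 15.9 to 28.4 against 9.09 to 17.2 CPM. Both overlapped between the groups, with log2 fold changes of 1.10 ± 0.22 and 0.76 ± 0.16 (adjusted p = 0.242 and 0.368).

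On the lower side, Rgs22, a regulator of G protein signalling, had the largest difference among these genes. Its level was 0.289 to 0.673 CPM in fentanyl males (median 0.511) and 1.04 to 6.66 CPM in saline males (median 1.66). The groups did not overlap, and saline male replicate 3 alone held 6.66 CPM. The log2 fold change was -2.21 ± 0.48 (adjusted p = 0.384) and -1.53 without that library.

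Other genes with small p on the lower side were Zfp655, a zinc finger protein (log2 fold change -0.43 ± 0.09, adjusted p = 0.341), Midn, which directs proteins to the proteasome (-0.30 ± 0.07, adjusted p = 0.384), and the nuclear receptor Nr2f6 (-0.32 ± 0.08, adjusted p = 0.544). Midn, Nr2f6 and Man2b2, a lysosomal mannosidase (-0.23 ± 0.06, adjusted p = 0.605), did not overlap between the groups, while Zfp655 did, at 43.6 to 54.3 against 53.8 to 77.5 CPM. Pdcd4, an inhibitor of translation, had 46.5 to 64.6 against 63.0 to 80.8 CPM (-0.35 ± 0.09, adjusted p = 0.676). Ndufa10l1, a copy-like gene of a respiratory complex subunit, had 0.687 to 4.403 against 1.57 to 8.79 CPM (-1.73 ± 0.44, adjusted p = 0.662). Rn45s, the ribosomal RNA precursor, which poly(A) selection depletes, had 89.9 to 140 against 110 to 292 CPM (-0.84 ± 0.20, adjusted p = 0.456).

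Of these 16 genes below the threshold, DESeq2 called 15 and limma voom with sample quality weights called 14. Both tools called all 7 genes that passed.

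Most of the variance between libraries did not follow exposure. The first principal component of log2 CPM held 34.2% of the variance and separated saline males with library numbers 1 and 2, at -46.9 and -46.5, from the other saline males, at -11.3 to 42.3. The fentanyl males lay between -12.6 and 40.6, inside the saline range (exact permutation test, two-sided, p = 0.7316, n = 6 each). The second component (24.4%) set fentanyl male replicate 2 apart, at 58.8.

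The fourth component, with 6.70% of the variance, differed by exposure. All 6 fentanyl males lay above 0 there, from 1.90 to 17.8, and 5 of 6 saline males lay below 0, with saline male replicate 3 at 8.03 as the exception. The exact two-sided permutation p was 0.006494 and 0.04545 after Benjamini-Hochberg adjustment over 7 measures per library (924 splits, smallest possible p 0.002165). The other 6 measures were the total count, the mitochondrial share of counts, the number of genes with a count and the first 3 components, with adjusted p from 0.2803 to 0.9589.

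Fentanyl male replicate 2 stood apart in composition. Mitochondrially encoded genes took 17.7% of its counts, against 8.90% to 10.1% in the other 5 fentanyl males and 8.44% to 11.8% in saline males. The group means were 10.8 ± 3.37% and 10.6 ± 1.23% (exact permutation test, two-sided, p = 0.9589, n = 6 each). Over the 15506 genes averaging 1 CPM or more, the median SD of log2 CPM was 0.218 in fentanyl males and 0.247 in saline males. It was 0.132 in fentanyl males without replicate 2 and 0.190 in saline males with library numbers 9 to 12. So a single fentanyl library and a pair of saline libraries widened the spread of their groups.

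**Figure D3:**
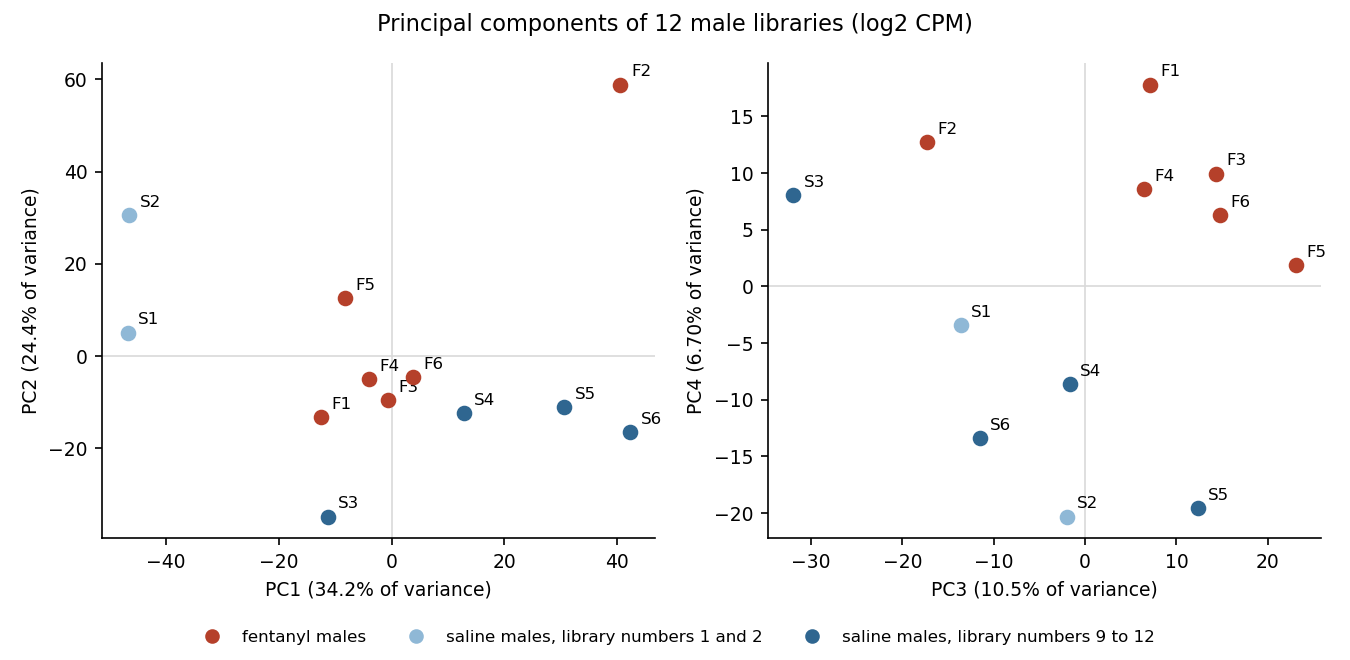
Positions of the 12 male libraries on principal components 1 to 4 of log2 CPM, labelled F for fentanyl and S for saline with the replicate number. On the first component the lighter blue points, saline library numbers 1 and 2, lie at the far left, on the second F2 lies at the top at 58.8, and on the fourth all 6 fentanyl points lie above 0.

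Most genes of motile cilia did not pass. Of 34 tested members of the motile cilium and axoneme list, 31 did not. The 3 that passed, Spag6l, Efcab1 and Calr3, were put on the list with their calls known. Of these, Calr3 is described above as a chaperone of the endoplasmic reticulum, not as a part of cilia. The count of 3, beside 0.0423% called over all genes, is therefore set by how the list was built. The list's median log2 fold change was -0.10 with 21 of 34 below 0, beside -0.01 and 48.1% above 0 over all genes. Among the others, Cfap69, a protein of the sperm and ciliary axoneme, had -0.40 ± 0.15 on the log2 scale, and the dynein heavy chain genes Dnah5, Dnah9 and Dnah11 had -0.43 ± 0.18, -0.66 ± 0.36 and -0.73 ± 0.30. Foxj1, the transcription factor that drives the motile cilium programme, averaged 3.35 CPM in fentanyl males against 3.61 CPM in saline males, a log2 fold change of -0.11 ± 0.15. Hydin, which like Spag6l belongs to the central apparatus, had 0.06 ± 0.35. Rfx2 and Rfx3, transcription factors of ciliary genes, had -0.06 ± 0.22 and 0.17 ± 0.18.

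Genes of intraflagellar transport and primary cilia centred on no difference. None of 50 tested passed, 27 were below 0 and the median was -0.01, with Ift140 the only member without overlap between the groups. Tctn1 and Bbs1, both needed at the base of cilia, had log2 fold changes of 0.22 ± 0.10 and -0.20 ± 0.09. Of 20 chaperones of the endoplasmic reticulum, Calr3 alone passed and the median was 0.03. Xbp1, the transcription factor of the unfolded protein response, had -0.17 ± 0.11 and Sdf2l1 0.22 ± 0.16. A call for Calr3 was thus not accompanied by calls among the other chaperones.

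None of the 8 opioid peptide and receptor genes passed, 2 were above 0 and the median log2 fold change was -0.17. The sign of that median depended on the saline animals: it was 0.25 without library numbers 1 and 2 and 0.16 without saline male replicate 1 alone. Penk, the enkephalin precursor, had 913 to 1817 CPM in fentanyl males against 426 to 2516 CPM in saline males. The saline range enclosed the fentanyl range, and the log2 fold change was -0.03 ± 0.40, with a 95% interval of -0.89 to 0.83. Pdyn, the dynorphin precursor, had 153 to 299 against 160 to 553 CPM (-0.20 ± 0.29), and Oprk1, the kappa receptor gene, 8.22 to 22.1 against 13.6 to 38.8 CPM (-0.25 ± 0.29).

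The gene of the mu receptor, Oprm1, on which fentanyl acts, was low, with 0.216 to 3.55 CPM in fentanyl males against 0.982 to 5.43 CPM in saline males. Its log2 fold change was -0.19 ± 0.50, and its 95% interval was wide, from -1.26 to 0.88. Oprd1, the delta receptor gene, had 0.42 ± 0.27, the nociceptin receptor gene Oprl1 -0.16 ± 0.34, and the low Pnoc and Pomc, precursors of nociceptin and of beta-endorphin, -0.30 ± 0.61 and 0.19 ± 0.28. All 8 overlapped between the groups.

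Of 37 partners of opioid receptor signalling (G proteins, receptor kinases, arrestins, regulators of G protein signalling, cyclases), none passed and the median was -0.03. Rgs4, which shortens signalling by inhibitory G proteins, had 190 to 330 CPM in fentanyl and 108 to 220 CPM in saline males, a log2 fold change of 0.61 ± 0.17 (adjusted p = 0.827). Rgs10, a regulator rich in microglia, had 35.2 to 53.3 against 40.8 to 76.4 CPM (-0.42 ± 0.17). These ranges overlapped, and Rgs10 had -0.84 against saline numbers 1 and 2 and -0.15 against numbers 9 to 12.

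Neuronal lists were described next, and for these, as for every list of cell type markers, fewer cells of a type and less RNA per cell cannot be told apart in bulk tissue. No member of any of them passed. For striatal medium spiny neurons, 21 of 25 markers were above 0 and the median log2 fold change was 0.34. Foxp2, a transcription factor of these neurons, had 42.4 to 92.5 against 25.6 to 73.3 CPM (0.51 ± 0.22), and its groups overlapped. Summed over the list, the saline males with library numbers 1 and 2 had 11677 and 14189 CPM and the other 4 had 3808 to 6341 CPM. The fentanyl males, at 7997 to 12303 CPM, lay between the 2 saline sets except for replicate 5, which entered the range of numbers 1 and 2.

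Central amygdala neuron markers had a median of -0.10, with 15 of 24 below 0, but 0.23 without saline numbers 1 and 2 and 0.08 without saline male replicate 1 alone. Cartpt, a peptide precursor counted in this list, had 2.16 to 8.38 CPM in fentanyl and 2.57 to 69.0 CPM in saline males (-2.37 ± 0.67, adjusted p = 0.803), and its highest values were those of saline males with library numbers 1 and 2, at 69.0 and 33.0 CPM. Against numbers 9 to 12 its log2 fold change was -1.05. Among cortical and basolateral glutamatergic markers (15 tested, median -0.05), Slc17a7 had -3.42 ± 1.19, carried by saline male replicate 3, which was also the highest library for 8 of the 15. Lmo3, a cofactor of transcription, had 0.21 ± 0.07. Of 27 GABAergic interneuron markers (median -0.03), Lamp5, a marker of neurogliaform cells, had 137 to 208 against 60.0 to 157 CPM, a log2 fold change of 0.69 ± 0.19 (adjusted p = 0.766).

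Glial lists lay close to all genes when all 6 saline males were used. Mature oligodendrocyte and myelin genes had a median of 0.09 with 22 of 27 above 0, and the medians were -0.03 for oligodendrocyte precursors, -0.04 for astrocytes and -0.07 for microglia and macrophages. Without saline numbers 1 and 2 the medians were, in the same order, -0.22, -0.24, -0.18 and -0.20. Mobp, a myelin protein gene, had 0.29 ± 0.38, and its highest level, 7123 CPM, was in fentanyl male replicate 2, without which it had 0.02. F3, which encodes tissue factor and is made by astrocytes in the brain, had 7.70 to 10.6 CPM in fentanyl and 9.28 to 14.997 CPM in saline males (-0.45 ± 0.13, adjusted p = 0.893). P2ry12, the purinergic receptor of microglia, had -0.30 ± 0.21, with 0.24 against saline numbers 1 and 2 and -0.51 against numbers 9 to 12. None of these lists had a member past the threshold.

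Vascular and meningeal lists had more members above 0 than below. Endothelial and mural markers had a median of 0.11 with 20 of 28 above 0. Fentanyl male replicate 2 was the highest library for 22 of the 28, and without it the median was -0.06. Abcg2, an efflux transporter of brain endothelium, had 9.30 to 28.1 against 6.19 to 9.93 CPM (0.91 ± 0.24, adjusted p = 0.737). Meningeal and fibroblast markers had a median of 0.18 with 18 of 23 above 0. It was 0.24 without fentanyl male replicate 2 and 0.06 without saline numbers 1 and 2.

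The groups of 3 of the 23 meningeal and fibroblast genes did not overlap, beside 0.375% of all genes: Ltbp2, Dcn and Col1a2, a fibrillar collagen chain (4.01 against 2.92 CPM, log2 fold change 0.46 ± 0.14). The list was chosen with earlier results of these data known, so no conclusion about these genes as a set is drawn from that count. Bmp6, a bone morphogenetic protein in the same list, had 8.44 to 10.6 against 10.4 to 17.9 CPM (-0.54 ± 0.15, adjusted p = 0.803), the opposite direction. The summed level of this list was 336 to 567 CPM in fentanyl males, 204 to 213 CPM in saline males with library numbers 1 and 2 and 287 to 708 CPM in those with numbers 9 to 12. Its part in the levels of Ltbp2 and Dcn was not tested. Choroid plexus markers were nearly absent, with 2 of 12 tested.

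Activity and stress lists had more members below 0 than above, again with none past the threshold. Immediate early genes had a median of -0.17, with 19 of 24 below 0, but the median was -0.03 without saline male replicate 2 and 0.09 without saline numbers 1 and 2. Fos, which neurons switch on with activity, had 3.98 to 9.67 against 3.66 to 13.4 CPM (-0.67 ± 0.31), and Nr4a3, a nuclear receptor induced in the same way, had 1.66 to 7.49 against 5.19 to 27.2 CPM (-1.11 ± 0.42). Against saline numbers 9 to 12 alone, Fos had -0.48 and Nr4a3 -0.52. Saline male replicate 2 was the highest library for 11 of the 24. Stress and social peptides and their receptors had a median of -0.23 with 16 of 22 below 0, and of -0.016 without saline male replicate 3. Crhbp, which binds corticotropin-releasing hormone, had 1.31 to 2.71 against 1.97 to 5.84 CPM (-0.81 ± 0.31), and saline male replicate 3 was the highest library for 12 of the 22 genes. Glucocorticoid receptors and responsive genes had a median of -0.11 over 21 genes, of 0.07 without saline male replicate 5 and of -0.23 without fentanyl male replicate 2.

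Receptor and synapse lists showed no common lean. The medians were 0.05 for 25 dopamine, noradrenaline and serotonin receptors, 0.03 for 33 glutamate receptors, -0.11 for 19 GABA and glycine receptors, and -0.01 for 33 genes of release and postsynaptic scaffolds. That of glutamate receptors was 0.22 without saline numbers 1 and 2. Adra2b, an adrenergic receptor gene, had 5.50 to 8.24 against 2.20 to 7.70 CPM (0.81 ± 0.26, adjusted p = 0.980). Gabrd, the delta subunit of extrasynaptic GABA receptors, had 0.59 ± 0.24 and Gabrg1, a gamma subunit, -0.55 ± 0.23. Grm8, a presynaptic glutamate receptor gene, had 0.49 ± 0.21. Each of these genes overlapped between the groups. Gabrd had 0.01 against saline numbers 1 and 2 and 0.99 against numbers 9 to 12, and Adra2b 1.48 and 0.57.

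The matrix and perineuronal net list had a median of -0.07 over 30 genes, so the direction of Ltbp2 was not shared by most of its members, of which 10 were above 0. Class I histocompatibility and interferon genes had a median of -0.02 over 21 genes, and of -0.13 without fentanyl male replicate 2. RT1-A2, a class I gene, had 11.7 to 35.6 against 7.53 to 12.8 CPM (0.85 ± 0.27, adjusted p = 0.965), with 35.6 CPM in fentanyl male replicate 2 and a log2 fold change of 0.51 without it. Class I genes are near-identical copies of each other, and their counts are uncertain for that reason.

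Energy genes followed a single library. All 13 mitochondrially encoded genes and 23 of 34 nuclear-encoded genes of oxidative phosphorylation were highest in fentanyl male replicate 2. With that library the medians were 0.03 and 0.07, and without it -0.22 and -0.0038. ND3, a subunit of complex I, had 1065 to 2784 against 695 to 1184 CPM (0.58 ± 0.23), and its 2784 CPM was in that library, without which it had 0.29. No member of either list passed.

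**Figure D4:**
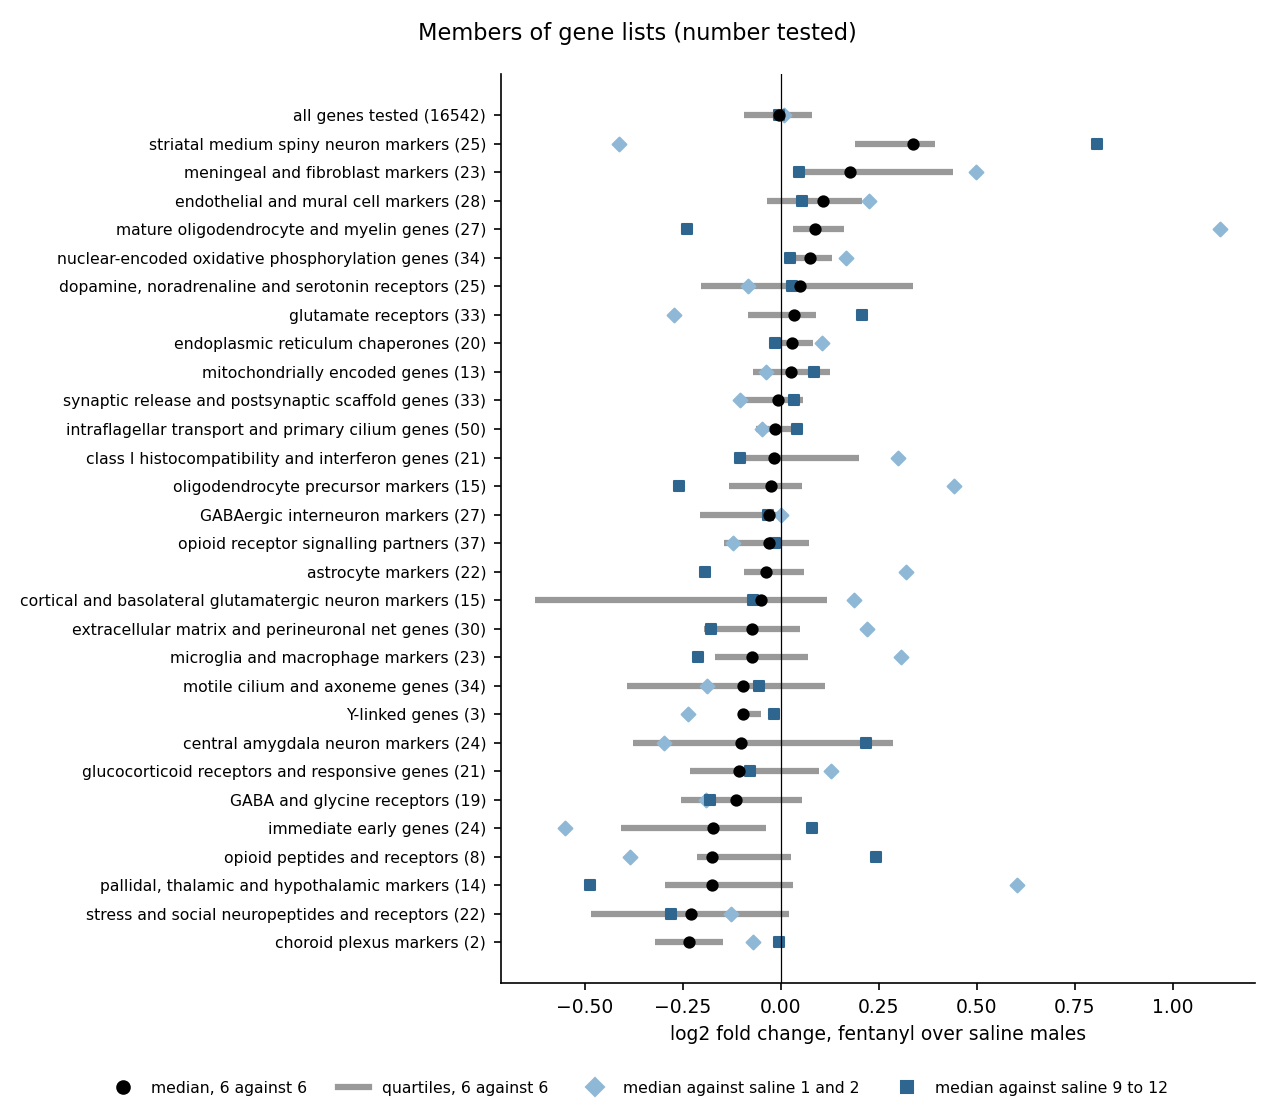
Median log2 fold change of fentanyl over saline males (black points, with quartiles as grey bars) for the tested members of each gene list, and the medians against each set of saline libraries (diamonds for numbers 1 and 2, squares for 9 to 12). The diamond and the square lie on opposite sides of 0 for striatal markers (-0.41 and 0.81) and for myelin genes (1.12 and -0.24), with the black point between them.

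The saline males fall into 2 sets by library number, 1 to 2 and 9 to 12, which the labels do not call batches. All fentanyl males have numbers 1 to 6, so only numbers 1 and 2 occur in both groups, and the number sets and exposure cannot be told apart fully. In a fit with the 2 saline sets apart, the fentanyl males differed from saline numbers 1 and 2 in 597 genes (3.61%) and from saline numbers 9 to 12 in 42 genes (0.254%) at an adjusted p under 0.05. These contrasts share the fentanyl libraries. Against numbers 1 and 2, striatal markers had a median of -0.41 and myelin genes of 1.12, and against numbers 9 to 12 they had 0.81 and -0.24. With all 6 saline males, the medians of both lists lay between these values of opposite sign.

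The groups of the 7 called genes did not overlap, so their having the same direction against both saline sets was fixed in advance. Only the sizes of the differences are informative here. Magix did not pass against numbers 1 and 2 (adjusted p = 0.0507 in the fit with the sets apart). Spag6l had log2 fold changes of 3.87 against numbers 1 and 2 and 3.38 against numbers 9 to 12, and Efcab1 had 2.09 and 1.87. LOC120095234 had 3.83 and 3.69, LOC100912028 3.87 and 3.22, Calr3 0.83 and 0.91, and Lonrf3 -0.43 and -0.45. The widest gap was that of Magix, with 1.30 and 2.15. Penk and Pdyn, whose groups overlapped, could differ in sign. Penk had -0.94 and 0.81, and Pdyn -0.86 and 0.30, so the values for these opioid peptides depended on which saline animals were used. Oprm1, Oprk1, Oprl1 and Pnoc also differed in sign between the sets, with -0.79, -0.87, 0.41 and 0.95 against numbers 1 and 2 and 0.22, 0.20, -0.37 and -0.67 against numbers 9 to 12.

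The 4 female libraries offer animals that played no part in the choice of these genes. They do not separate exposure from library number. Fentanyl females carry numbers 1 and 2, and saline females carry 10 and 11, as do saline male replicates 4 and 5. Number and exposure thus cannot be told apart in any comparison of females, and the part of library number was not tested there. In females, 2 against 2, all 7 genes had the same direction as in males, beside 55.9% of all genes. For 6 of them the female groups did not overlap in that direction, beside 28.4% of all genes. With 2 against 2, lack of overlap is common: 8155 of 16542 genes showed it in either direction. Spag6l was at 45.5 and 16.2 CPM in fentanyl and 1.56 and 1.19 CPM in saline females. Calr3 was at 7.86 and 8.80 against 5.06 and 4.77 CPM, and Lonrf3 at 25.4 and 29.2 against 30.7 and 47.2 CPM. Magix overlapped, with 1.23 and 3.22 CPM in fentanyl and 1.37 and 0.565 CPM in saline females.

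LOC120095234 had the smallest adjusted p for a difference between the sexes by edgeR. Saline females had 4.06 and 2.76 CPM, above the highest saline male at 0.564 CPM, and fentanyl females had 5.52 and 5.85 CPM. Its log2 fold change was 3.74 in males and 0.74 in females, a difference of 3.002 ± 0.44. The test of that difference gave an adjusted p of 0.0729 with edgeR and of 2.60e-05 with DESeq2. No gene differed between the sexes in its response at an adjusted p under 0.05 by edgeR, 0 of 17856 (0%), with 1470 at an unadjusted p under 0.05. DESeq2 called 4, namely LOC120095234 and the class I genes RT1-M1-2, RT1-N2 and RT1-S2.

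Of the 62 genes without overlap in males, 49 (79.0%) had the same direction in females, beside 9250 (55.9%) of all 16542 genes. Among the higher ones the count was 31 of 35, and among the lower ones 18 of 27. The female groups were also free of overlap in the same direction for 28 of the 62 (45.2%), beside 4691 (28.4%) of all genes. Ift140 and Ltbp2 were among these, with log2 fold changes of 0.48 and 1.55 in females, while Dcn had -0.03 and Galnt14 0.18.

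**Figure D5:**
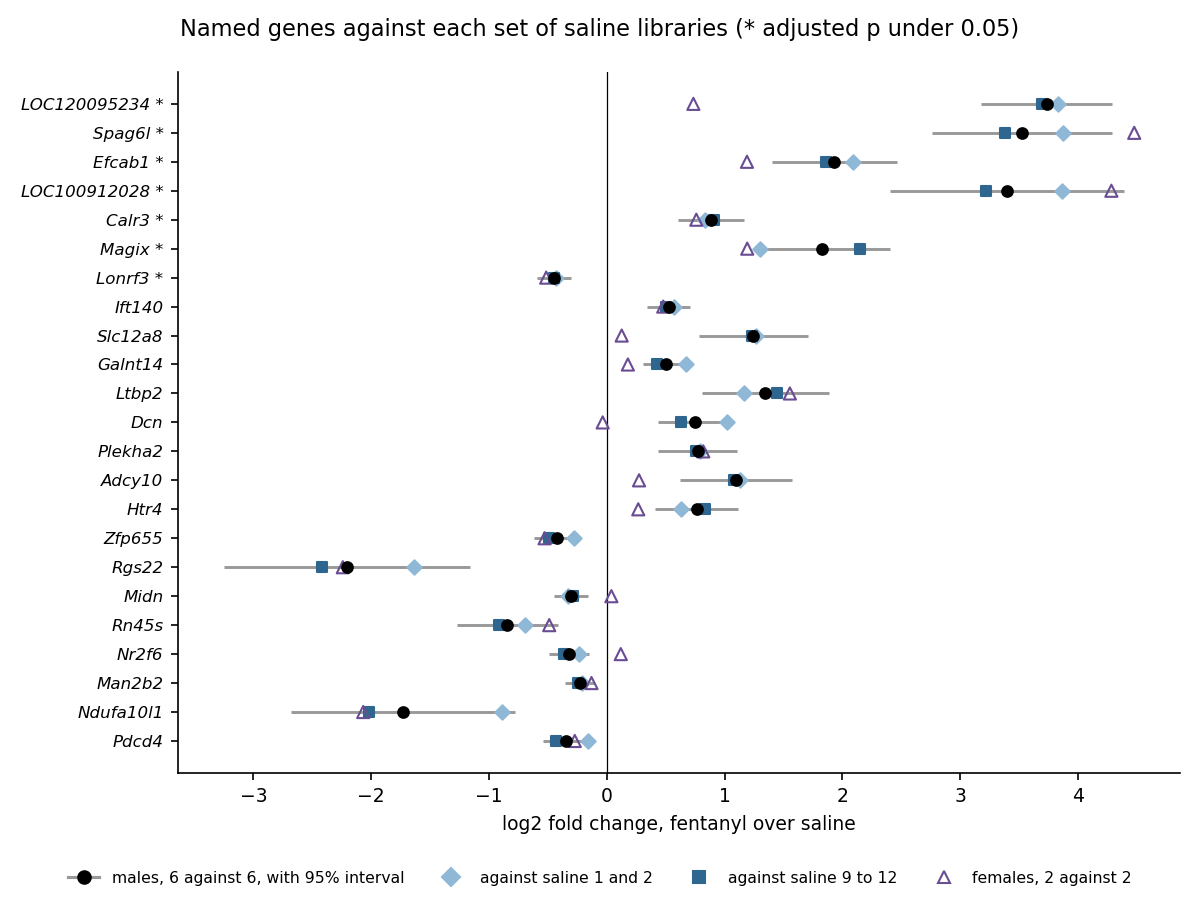
Log2 fold change of fentanyl over saline for the 7 genes past the threshold (asterisks) and the 16 next by p. Black points are 6 against 6 males with 95% intervals, diamonds and squares are fits against saline library numbers 1 and 2 and 9 to 12, and open triangles are females. For LOC120095234 the female value of 0.74 lies far below the male interval of 3.18 to 4.29, and the squares and diamonds of Spag6l lie within its interval of 2.76 to 4.29.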

How the data were processed

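Per the labels' protocols, Trizol-extracted RNA went through poly(A) selection and a NEBNext library kit. The authors deposited whole-number read counts per gene with no normalization, 1 column per library for 33294 gene symbols, with columns identified by library name. The submitters' processing notes name Trimmomatic, STAR, HTSeq, DESeq2 and build rn7. For versions, annotation and strand setting: not given in the sources used here. Reads of genes that overlap or run antisense may therefore be mixed.

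The analysis used edgeR 4.0.16 in R 4.3.3. The 12 male libraries were fitted alone. Of the genes, 16542 passed filterByExpr (minimum 0.603 CPM), TMM factors scaled the libraries, and exposure was tested with glmQLFit and glmQLFTest (robust), with Benjamini-Hochberg adjustment over all genes tested and a threshold of 0.05. Standard errors equal the log2 fold change over the root of F. A difference between the sexes was tested as an interaction over all 16 libraries and 17856 genes. Single values per library were compared by exact permutation. Principal components used log2 CPM with a prior count of 2. Intervals cover counting error and the spread between animals, not shared litters.

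Over the 66 pairs of libraries chi-square per gene was at least 3.19, above sampling noise, and each library was used as 1 sample. The genes and the 29 gene lists (738 entries, 736 found in the table, 15 of them by an older or newer symbol, 672 tested) were chosen with earlier results of these data known. Genes were named by rule: all past the threshold, of those with an approved symbol and a mean of at least 1 CPM the 8 per direction with the smallest p below it and up to 10 without overlap, up to 3 per list, and all opioid genes. A gene that the rule would name is not reported here. Gene names, neighbours and promoters came from RefSeq tables of GRCr8, a newer build. The alternatives tried were DESeq2 1.42.0, RLE factors, an unfiltered table, limma 3.58.1 voom with sample quality weights, 2 surrogate variables (sva 3.50.0), all 16 libraries, the replicate number as a block, each saline number set left out and every library left out in turn. The steps were also tested on simulated counts. Raw reads were not used here.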

Additional observations from a re-analysis of the deposited data

Results flagged for a closer look

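In 35 of 264 groups of 6 libraries examined, the highest or lowest library lay far from the other 5 of its group by Dixon's criterion. For normally distributed values chance flags about 1 in 20 such groups, or 13.2 of 264. The groups here are CPM levels, list sums and library measures from the same 12 libraries, and many of them overlap. The count of 35 therefore cannot be tested against that rate. Of the 35, 24 were fentanyl male replicate 2, 7 saline male replicate 3, 2 saline male replicate 1, and 1 each fentanyl male replicates 1 and 5.

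Fentanyl male replicate 2 was above the other fentanyl males in its mitochondrial share, 17.7% of counts, and in the summed level of several lists. Its summed levels were 196733 CPM for mitochondrially encoded genes, 8207 CPM for nuclear-encoded oxidative phosphorylation genes, 39884 CPM for myelin genes, 983 CPM for endothelial and mural markers, 567 CPM for meningeal and fibroblast markers, 1569.8 CPM for glucocorticoid receptors and responsive genes and 473 CPM for class I and interferon genes. GABAergic interneuron markers were lower in it, at 1964 CPM. Single genes flagged high in it were the mitochondrial ND2 (16051 CPM), ND3 (2784 CPM) and ND4L (1189.8 CPM), the nuclear-encoded Sdhd (153 CPM), Cox7a2 (124 CPM) and Ndufs3 (142 CPM), the myelin gene Mobp (7123 CPM), the glucocorticoid-responsive Klf9 (347 CPM), the synaptic gene Snap25 (1906 CPM), Rgs10 (53.3 CPM), Ltbp1 (1.95 CPM), and the class I genes RT1-A2 (35.6 CPM) and RT1-CE10 (3.39 CPM). Pdcd4 (46.5 CPM) and the glutamate receptor gene Grin2a (6.71 CPM) were flagged low in it.

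Saline male replicate 3 was above the other saline males for Slc17a7 (68.4 CPM), Pnoc (10.4 CPM), Rgs22 (6.66 CPM), the corticotropin-releasing hormone receptor gene Crhr2 (3.96 CPM), Grm8 (26.6 CPM), Bbs1 (48.0 CPM) and LOC100912028 (1.60 CPM). Its 1.60 CPM for LOC100912028 was still below the lowest fentanyl male, at 3.03 CPM. Saline male replicate 1 was above its group for the GABA receptor gene Gabrg1 (259.9 CPM) and for Kl (5.22 CPM). Fentanyl male replicate 1 was above its group for Pnoc (10.03 CPM) and fentanyl male replicate 5 for Ndufa10l1 (4.403 CPM).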

How the results depend on the processing

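Beside the 6 higher and 1 lower gene reported, DESeq2 called 24 and 12, limma voom 39 and 27, and adding 2 surrogate variables gave 64 and 27. Without saline library numbers 1 and 2 there were 12 and 3, and without numbers 9 to 12 there were 775 and 444. The replicate block gave 3 and 0 genes, without Calr3, Efcab1, Lonrf3 and Magix. Without a filter on low counts 0 genes were lower, and likewise with all 16 libraries in the fit. Leaving out 1 library gave 2 (without saline male replicate 4) to 7 higher and 0 to 2 lower genes. Alternatives chosen after seeing the data gave 31 and 21 without fentanyl male replicate 2 and saline numbers 1 and 2, and 3 and 0 with myelin and striatal list means as covariates. The cause of these differences was not tested. The difference in mitochondrial share ranged from -1.12 percentage points (without fentanyl male replicate 2) to 0.636. DESeq2 called 4 genes for the sex difference, edgeR 0. Over 101 named genes and 23 settings no call reversed: 2197 of 2323 values stayed on their side of the threshold, 53 lost and 73 gained it. Values that did not pass could change sign, as Penk did in 11 of 23 settings. In 1 other setting Penk passed, with its reported sign. Of 667 list medians, 26 shifted by at least the SD of the list's mean level between libraries of a group. Signs changed more often in some lists. The median changed sign in 9 of 23 settings for central amygdala markers, in 12 for release and postsynaptic scaffold genes and in 0 for meningeal and fibroblast markers. Males of the same replicate number correlated at -0.0958 to 0.231, with 2 of 6 pairs over 0.1 and 1 of 6 libraries closest to its own number. These correlations cannot decide whether litter or handling paired the animals, since the labels name no pairs. Depth limits genes under 10 CPM most.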

Other observations

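Among genes outside the naming rule, some well-counted ones had groups that did not overlap without passing the threshold, and they were chosen here after their values were seen. Ndrg4, a protein abundant in neurons, had a mean of 1918 CPM in fentanyl and 1613 CPM in saline males, a log2 fold change of 0.25 ± 0.09. Atrnl1, an attractin-like membrane protein, had 154 against 105 CPM (0.55 ± 0.12) and Lrp12, a lipoprotein receptor family member, 125.8 against 94.2 CPM (0.42 ± 0.12). Mpp3, a membrane scaffold of the MAGUK family, had 81.1 against 63.8 CPM (0.35 ± 0.11). In females all 4 were free of overlap in the same direction, as were 28.4% of all genes. Their log2 fold changes there were 0.34, 0.36, 0.38 and 0.64. Epha10, an ephrin receptor family gene, had 43.0 against 63.4 CPM in males (-0.56 ± 0.15), without overlap, and -0.01 in females. Snx31, a sorting nexin, had 3.70 against 10.9 CPM in males (-1.56 ± 0.42) and -2.10 in females, without overlap in either. By edgeR's quasi-likelihood test their adjusted p-values were 0.384 or above.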
